A study of Mus musculus with 12 samples.

Results

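Chemokines are small secreted proteins that guide leukocytes, and their receptors are G protein-coupled receptors on the cells they guide. The members described here were all genes of the array whose annotation gave a single symbol made of Ccl, Cxcl, Ccr, Cxcr or Xcl with a number (and at most 1 letter after it), together with Cx3cl1, Cx3cr1 and Xcr1. This rule, which uses names and no measured value, gave 51 of 22180 genes: 34 ligands (19 Ccl, 13 Cxcl, Xcl1 and Cx3cl1) and 17 receptors (9 Ccr, 6 Cxcr, Cx3cr1 and Xcr1). A further 6 genes that fit the name (Ccl19, Ccl21a, Ccl21b, Ccl21c, Ccl21d and Ccl27b) shared their probe sets with other genes and were left out. Where a gene had more than 1 probe set, the brightest on average was used, which concerned Ccl27a alone.

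Livers came from male C57BL/6 mice, either wild type (WT) or AHNAK KO, which lack the large scaffold protein encoded by Ahnak. In weight-matched groups, mice of each genotype ate chow or a diet rich in fat (HFD, 60% fat) for 8 weeks, so that the 4 groups were WT on chow, WT on HFD, KO on chow and KO on HFD, each of 3 mice with 1 array per mouse. The labels do not state the mice's age, how the Ahnak allele was made, or which part of the gene it removes. All values are log2 signals, so a difference of 1 is a change of 2-fold, and each difference carries the standard error (SE) from a limma model of all genes. A gene was called higher or lower when its Benjamini-Hochberg adjusted p over all 22180 genes was under 0.05.

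The family is named for the spacing of conserved cysteines near the start of the protein, which are adjacent in CC ligands (Ccl) and separated by another residue in CXC ligands (Cxcl). In liver, Ccl2 and its receptor Ccr2 are known for drawing in monocytes, Cxcl1 and Cxcl2 act on Cxcr2 of neutrophils, and Cxcl9 and Cxcl10, induced by interferon, act on Cxcr3 of T cells and natural killer (NK) cells. Other members, such as Cxcl12 with Cxcr4 and Cxcl13 with Cxcr5, place cells in tissues at rest.

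Hepatocyte markers such as Alb and Apoa1 averaged between 13.20 and 13.37 on every array, as the label of the tissue implies. Arrays of 1 group correlated with r of 0.992 to 0.994 across genes, which are not independent replicates, and the 3 WT livers on HFD scored 30.02 to 32.34 on the first principal component of all genes (32.2% of the variance) against -18.5 to -3.95 for the other 9. Ahnak itself differed between KO and WT by -0.04 ± 0.14 under chow and by -0.48 ± 0.14 under HFD (limma adjusted p = 0.971 and 0.0483), and since the deleted part is unstated, its probe set was not used as a check of the genotype labels. Among the members, the SD of 3 mice of a group ran from 0.01 to 0.84 with a median of 0.16. As a mark of low signal, the 1088 odorant receptor genes of the array, which are not known to act in liver, had a median signal of 3.49 and a 95th percentile of 5.60. The highest group mean of 17 members lay below that percentile, and 34 lay above it.

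On HFD, the livers of KO mice had lower signals than those of WT mice for 10 of the 51 genes and a higher signal for 1. The 10 were the interferon-induced ligands Cxcl10 and Cxcl9, the monocyte and macrophage ligands Ccl3, Ccl2 and Ccl5, the ligands Ccl17 and Ccl22 of Ccr4, a receptor of T cells, the neutrophil ligand Cxcl1, and the receptors Ccr2 and Cxcr4. The gene that was higher was Ccl20, a ligand of Ccr6. The lower genes differed by 3.49-fold (Cxcl10) to 1.42-fold (Cxcr4), and Ccl20 by 1.38-fold. This was 19.6% of the members lower, against 6.62% of all genes, and 1.96% higher, against 3.89% of all genes (limma, adjusted p under 0.05). Ligands made up 8 of the 10 lower genes (8 of 34 ligands) and receptors 2 (2 of 17). The remaining 40 genes did not pass, and the median over the 51 was -0.05, against 0.00 over all genes, and the difference lay in part of the family. When each array was centred on its median, the split of calls over all genes moved from 862 higher and 1469 lower to 545 and 1937.

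**Figure D1:**
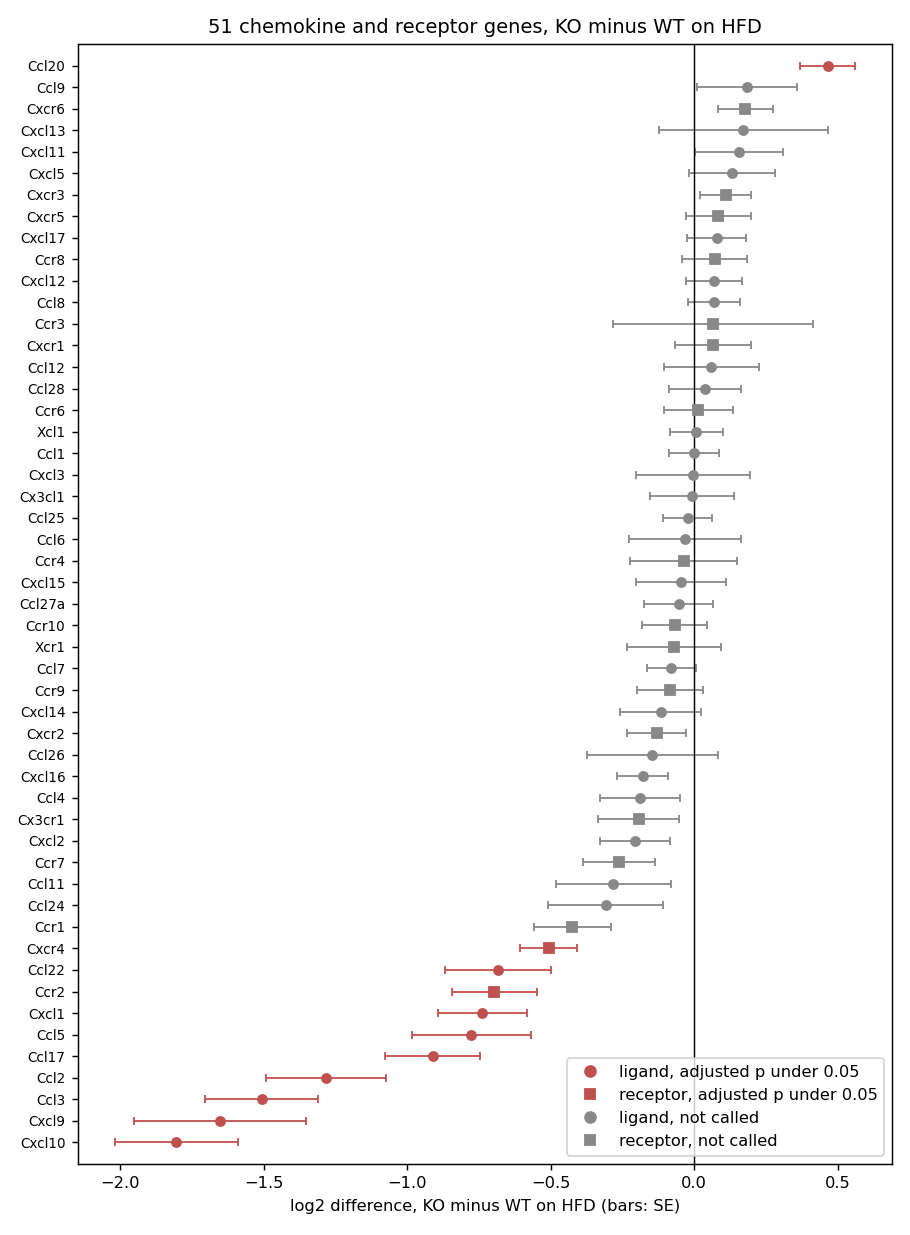
Each of the 51 genes is placed by its log2 difference between KO and WT livers on HFD (horizontal axis, bars are the SE of the fit, 3 mice per group), with circles for ligands, squares for receptors and red for an adjusted p under 0.05. Cxcl10, Cxcl9, Ccl3 and Ccl2 lie below -1, most other genes lie near 0, and Ccl20 is the red point above 0.

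The same WT livers on HFD also differed from WT livers on chow. HFD raised 7 of the 51 genes in WT mice, 13.7% against 4.02% of all genes, and lowered 1, 1.96% against 2.94% of all genes. Those that rose were Ccl3, Ccl2, Ccl17, Ccr2, Cxcl9, Cxcl10 and Cxcl1, by 1.57-fold to 2.61-fold, and Cxcr6 fell. In KO mice HFD changed 0 of the 51 genes by limma's adjusted p, where 0.0857% of all genes were higher and 0.158% lower. An unadjusted limma p under 0.05 was found for 3 of the 51 (Ccl17, Ccl20 and Cxcl13), against 1887 of all 22180 genes. The share of the 51 was thus not above that of all genes. On chow 0 of the 51 differed between KO and WT, where 0.00902% of all genes were higher and 0% lower. There, 7 of the 51 had an unadjusted limma p under 0.05, against 1558 of all 22180 genes, a smaller share. The test of whether the diet response differed between genotypes called 3 genes, Ccl17, Ccl3 and Cxcl1, all more negative in KO, 5.88% against 2.1% of all genes, and called 0 in the other direction, where 1.43% of all genes passed. The comparisons of KO with WT on HFD, of HFD with chow in WT and of the interaction share the WT HFD arrays, so their calls are not independent of each other. The count for HFD in WT was 4 without WT chow 3 and 5 without WT chow 1 or WT HFD 1, and that of the interaction was 1 without WT chow 2, WT chow 3 or KO chow 3.

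**Figure D2:**
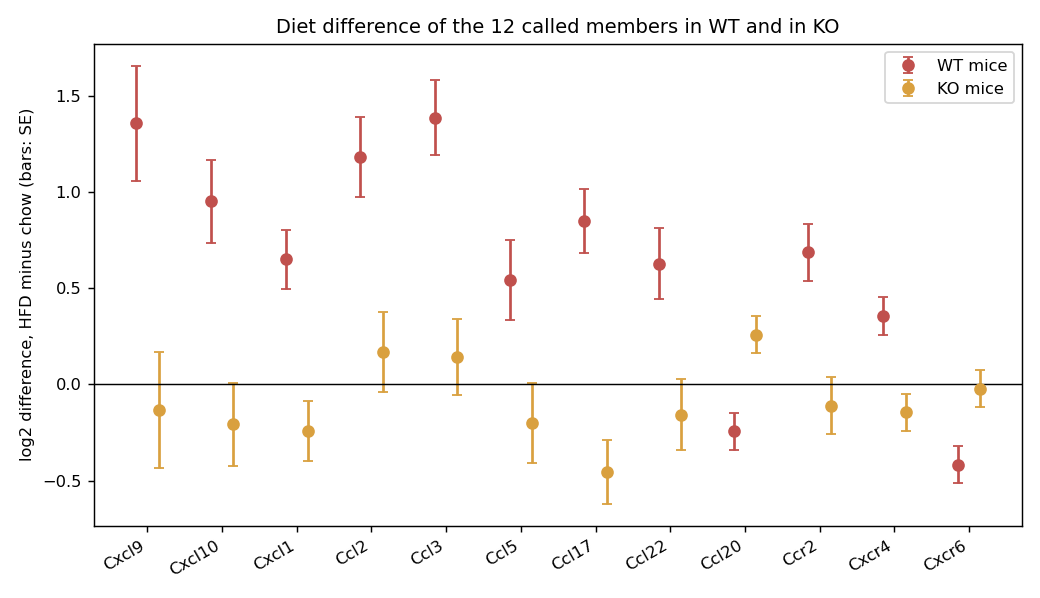
For the 12 genes called in at least 1 comparison, the log2 difference between HFD and chow (vertical axis, bars are the SE) is shown in WT mice (red) and in KO mice (yellow). In WT mice 10 of the points lie above 0 and those of Ccl20 and Cxcr6 below it, while the KO points lie between -0.45 and 0.26.

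Of the 3 interferon-induced ligands of Cxcr3, Cxcl10 and Cxcl9 had the largest differences between genotypes on HFD among the 51 genes, and Cxcl11 did not pass. Cxcl10, a ligand of Cxcr3 on T cells and NK cells, had log2 signals of 7.47, 7.20 and 7.38 in the 3 chow-fed WT mice and 8.39, 8.20 and 8.31 in those fed HFD. Cxcl10 in KO mice read 6.53, 6.68 and 6.90 on chow and 6.88, 6.75 and 5.86 on HFD. Every WT liver on HFD was above the 9 others, and the KO livers lay below the WT livers on either diet, with no overlap. Cxcl10 was 3.49-fold lower in KO than in WT on HFD, a log2 difference of -1.80 ± 0.21 (adjusted p = 0.000314), and this call held whichever array was left out. On chow the difference of -0.65 ± 0.21 did not pass (adjusted p = 0.561). HFD raised Cxcl10 in WT by 0.95 ± 0.21 (adjusted p = 0.0196), which failed to pass when WT chow 2 or 3, or WT HFD 1 or 3, was left out (adjusted p of up to 0.0689). In KO the diet difference was -0.21 ± 0.21 (adjusted p = 0.85).

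Cxcl9, made by macrophages and endothelium under interferon gamma, read 9.60, 9.23 and 8.79 in the 3 chow-fed WT mice and 10.79, 10.49 and 10.40 in those fed HFD. Cxcl9 in KO mice read 9.05, 8.42 and 9.65 on chow and 9.38, 8.55 and 8.80 on HFD. The 3 WT livers on HFD were again the highest, and the other 3 groups overlapped each other. The difference between KO and WT on HFD was -1.65 ± 0.30 (adjusted p = 0.00404), or 3.14-fold. HFD raised Cxcl9 in WT by 1.36 ± 0.30 (adjusted p = 0.0178), a call that ended without WT chow 3, WT HFD 1 or WT HFD 2 (adjusted p of up to 0.0777), and in KO the difference was -0.13 ± 0.30 (adjusted p = 0.944). The third of these neighbouring genes, Cxcl11, did not pass in any comparison: it averaged 6.97 ± 0.28 (SD, n = 3) in WT and 7.12 ± 0.23 in KO on HFD, and RefSeq for GRCm38.p6 lists it as a transcribed pseudogene. Their receptor Cxcr3 differed by 0.11 ± 0.09 (adjusted p = 0.513) on HFD.

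**Figure D3:**
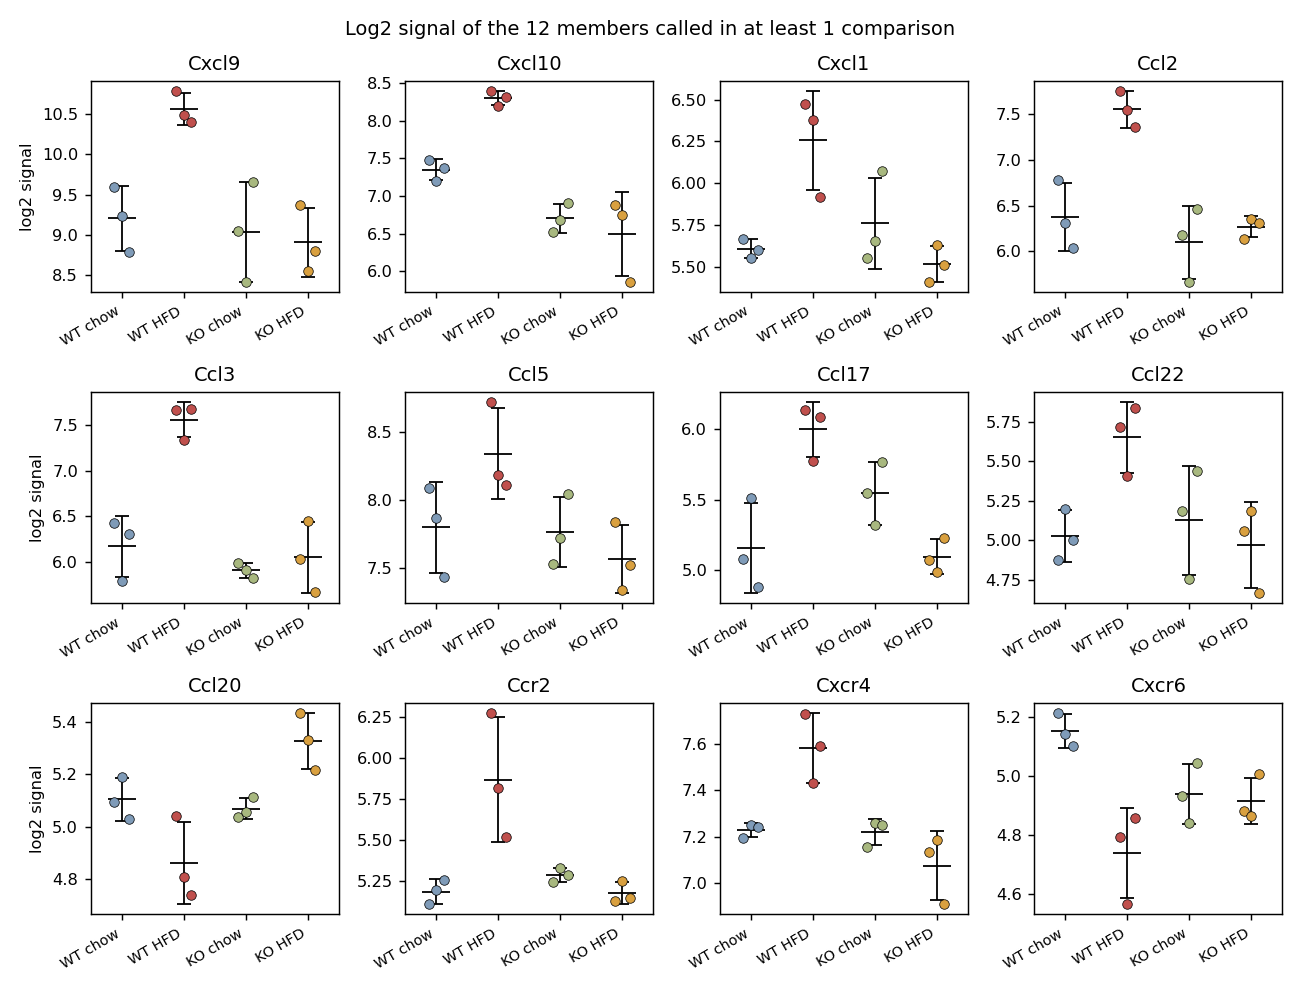
Each panel shows 1 of the 12 genes called in at least 1 comparison, with the log2 signal of every mouse (points), the mean of 3 mice (line) and the SD (bars) in WT and KO livers on chow and HFD, each panel with its own vertical axis. The WT HFD points stand above the other groups for Cxcl10, Cxcl9, Ccl2, Ccl3, Ccr2 and Cxcr4, and the KO HFD points stand highest for Ccl20.

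Among the ligands that call monocytes and macrophages, Ccl2 and Ccl3 differed most. Ccl2, the main ligand of Ccr2, had log2 signals of 6.78, 6.31 and 6.04 in the 3 chow-fed WT mice and 7.76, 7.55 and 7.36 in those fed HFD. Ccl2 in KO mice read 6.17, 5.67 and 6.46 on chow and 6.14, 6.36 and 6.31 on HFD. The WT livers on HFD lay above all 9 others, whose ranges overlapped. HFD raised Ccl2 in WT by 1.18 ± 0.21 (adjusted p = 0.00557), or 2.27-fold, against 0.17 ± 0.21 (adjusted p = 0.879) in KO, and on HFD it was 2.43-fold lower in KO. The other Ccr2 ligands did not pass: KO minus WT on HFD was -0.08 ± 0.09 for Ccl7, 0.07 ± 0.09 for Ccl8 and 0.06 ± 0.17 for Ccl12, and the last 2 were below the odorant receptor percentile.

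Ccr2, the receptor of these ligands on inflammatory monocytes, was also highest in WT livers on HFD, with 5.11, 5.19 and 5.25 in the 3 chow-fed WT mice and 6.28, 5.81 and 5.52 in those fed HFD. Ccr2 in KO mice read 5.24, 5.33 and 5.28 on chow and 5.13, 5.25 and 5.14 on HFD. All 3 WT livers on HFD were above the other 9, and WT HFD 1 was the highest. The other group means lay between 5.17 and 5.28, below the odorant receptor percentile. KO was lower than WT on HFD, with a log2 difference of -0.70 ± 0.15 (adjusted p = 0.0104), and HFD raised Ccr2 in WT by 0.69 ± 0.15 (adjusted p = 0.0164), a call lost without WT chow 1 (adjusted p = 0.0561). With only the 6 arrays of either comparison in the fit, neither call of Ccr2 held. In KO the diet difference was -0.11 ± 0.15 (adjusted p = 0.888). In bulk tissue, fewer cells that carry a transcript and less transcript per cell cannot be told apart, which holds for every gene here.

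Ccl3, a ligand of Ccr1 that macrophages release, read 6.42, 5.79 and 6.30 in the 3 chow-fed WT mice and 7.67, 7.33 and 7.67 in those fed HFD. Ccl3 in KO mice read 5.99, 5.91 and 5.83 on chow and 6.03, 6.45 and 5.67 on HFD. No array of another group reached the WT livers on HFD. KO was 2.84-fold lower on HFD, with -1.51 ± 0.20 (adjusted p = 0.000591), and HFD raised Ccl3 in WT by 1.39 ± 0.20 (adjusted p = 0.00155) but differed by 0.14 ± 0.20 (adjusted p = 0.894) in KO. The difference between the diet responses was -1.24 ± 0.28 (adjusted p = 0.0305), a call kept only without WT chow 1, WT HFD 2 or KO HFD 2 and otherwise lost when an array was left out (adjusted p of up to 0.076).

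Ccl5, a ligand that T cells and NK cells release, read 8.09, 7.87 and 7.44 in the 3 chow-fed WT mice and 8.73, 8.19 and 8.12 in those fed HFD. Ccl5 in KO mice read 7.53, 7.72 and 8.05 on chow and 7.84, 7.34 and 7.52 on HFD. KO and WT on HFD did not overlap, while WT on HFD and the chow groups came close, the highest chow value being 8.09 and the lowest WT HFD value 8.12. KO was lower on HFD, with a log2 difference of -0.78 ± 0.21 (adjusted p = 0.0333), which did not pass when WT HFD 1 or 2, or KO HFD 2 or 3, was dropped (highest adjusted p 0.127). HFD minus chow in WT was 0.54 ± 0.21 (adjusted p = 0.157) for Ccl5. The CC ligands Ccl4, Ccl6 and Ccl9 did not pass between genotypes on HFD: -0.19 ± 0.14 for Ccl4, -0.03 ± 0.19 for Ccl6 and 0.18 ± 0.18 for Ccl9, with adjusted p values of 0.458, 0.953 and 0.583. The receptor Ccr1 stood at -0.43 ± 0.13 (adjusted p = 0.0663) with a signal below the odorant receptor percentile, and passed when WT HFD 3 or KO HFD 1 was dropped (adjusted p = 0.0489 and 0.0102), and with array weights, centring or quantile normalization.

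Ccl17 and Ccl22, which share the receptor Ccr4 and are made by dendritic cells and macrophages, were both lower in KO livers on HFD. Ccl17 read 5.08, 5.51 and 4.88 in the 3 chow-fed WT mice and 6.14, 5.78 and 6.09 in those fed HFD. Ccl17 in KO mice read 5.55, 5.32 and 5.77 on chow and 5.07, 4.98 and 5.22 on HFD. WT on HFD was highest and KO on HFD lay below KO on chow without overlap. The means of these other groups (5.15 in WT on chow, 5.55 and 5.09 in KO on chow and HFD) were below the odorant receptor percentile, so that the differences are taken against dim signals. KO was lower on HFD, with a log2 difference of -0.91 ± 0.17 (adjusted p = 0.00416), HFD raised it in WT by 0.85 ± 0.17 (adjusted p = 0.00984), and in KO the difference was -0.45 ± 0.17, which did not pass (adjusted p = 0.464). The difference between the diet responses, -1.30 ± 0.23 (adjusted p = 0.0112), held whichever array was left out, which was not so for Ccl3 and Cxcl1.

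Ccl22 read 4.87, 5.20 and 5.002 in the 3 chow-fed WT mice and 5.72, 5.403 and 5.84 in those fed HFD. Ccl22 in KO mice read 5.18, 4.76 and 5.44 on chow and 5.06, 5.19 and 4.67 on HFD. In KO and WT on HFD the arrays did not overlap, but KO on chow reached up to 5.44, above the lowest WT HFD array. The mean was above the odorant receptor percentile in WT on HFD alone, at 5.65. KO was lower on HFD, with a log2 difference of -0.68 ± 0.18 (adjusted p = 0.0345), which did not pass when WT HFD 1 or 3, or KO HFD 1 or 3, was dropped (highest adjusted p 0.124), nor with array weights. HFD minus chow in WT was 0.63 ± 0.18 (adjusted p = 0.0642). Ccr4 itself was below the odorant receptor percentile and differed by -0.04 ± 0.19 between KO and WT on HFD.

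Of the 4 ligands of Cxcr2 listed here (Cxcl1, Cxcl2, Cxcl3 and Cxcl5), Cxcl1 alone passed. Cxcl1, a ligand of Cxcr2, had log2 signals of 5.67, 5.56 and 5.60 in the 3 chow-fed WT mice and 6.48, 6.38 and 5.92 in those fed HFD. Cxcl1 in KO mice read 5.56, 5.65 and 6.07 on chow and 5.41, 5.63 and 5.52 on HFD. WT HFD 1 and 2 were above all arrays of the other groups, while WT HFD 3, at 5.92, was below KO chow 3. The mean of KO on HFD, 5.52, was below the odorant receptor percentile. On HFD KO was lower, with a log2 difference of -0.74 ± 0.15 (adjusted p = 0.00958). HFD raised Cxcl1 in WT by 0.65 ± 0.15 (adjusted p = 0.0262), which failed to pass when any WT chow array, or WT HFD 1 or 2, was dropped (highest adjusted p 0.102), and with only the WT arrays in the fit, and in KO the difference was -0.24 ± 0.15. The diet responses differed by -0.89 ± 0.22 (adjusted p = 0.0463), which held only without KO chow 1 or WT HFD 3 and reached 0.11 otherwise. The other Cxcr2 ligands stood at -0.21 ± 0.12 (Cxcl2), -0.00 ± 0.20 (Cxcl3) and 0.13 ± 0.15 (Cxcl5) in KO against WT on HFD, and Cxcr2 at -0.13 ± 0.10; none passed (adjusted p of 0.342, 0.995, 0.657 and 0.499). Both Cxcl3 and Cxcl5 were below the odorant receptor percentile in every group, with highest group means of 3.82 and 4.97.

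Cxcr4, the receptor of Cxcl12 on most leukocytes, was the other receptor that differed. It read 7.19, 7.25 and 7.24 in the 3 chow-fed WT mice and 7.73, 7.43 and 7.59 in those fed HFD. Cxcr4 in KO mice read 7.16, 7.26 and 7.25 on chow and 7.13, 7.18 and 6.91 on HFD. The WT livers on HFD were above all other arrays, and the spread in both chow groups was small. KO was lower than WT on HFD, with a log2 difference of -0.51 ± 0.10 (adjusted p = 0.00631), whichever array was left out, and HFD minus chow in WT was 0.35 ± 0.10 (adjusted p = 0.0522). Its ligand Cxcl12, which endothelial and stromal cells make at rest, averaged 10.85 ± 0.07 (SD, n = 3) in WT and 10.92 ± 0.17 in KO on HFD and differed by 0.07 ± 0.10 (adjusted p = 0.726).

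Ccl20 and Cxcr6 went the other way, at low signals. Ccl20, which draws Ccr6-bearing T and dendritic cells, read 5.09, 5.19 and 5.03 in the 3 chow-fed WT mice and 5.04, 4.81 and 4.74 in those fed HFD. Ccl20 in KO mice read 5.04, 5.06 and 5.11 on chow and 5.43, 5.33 and 5.22 on HFD. KO livers on HFD were the highest of all arrays, and they differed from WT on HFD by 0.47 ± 0.10 (adjusted p = 0.00911), whichever array was left out. All Ccl20 values were below the odorant receptor percentile of 5.60, and neither diet difference passed, with -0.24 ± 0.10 (adjusted p = 0.174) in WT and 0.26 ± 0.10 (adjusted p = 0.485) in KO. Its receptor Ccr6 differed by 0.02 ± 0.12. Cxcr6, the Cxcl16 receptor of liver-resident T and NK cells, read 5.22, 5.14 and 5.10 in the 3 chow-fed WT mice and 4.79, 4.56 and 4.86 in those fed HFD. Cxcr6 in KO mice read 4.93, 4.84 and 5.05 on chow and 4.88, 4.86 and 5.01 on HFD. All of these values were below the same percentile. In WT on HFD, Cxcr6 fell by 0.42 on the log2 scale (adjusted p = 0.022), with no overlap, and the call failed when WT HFD 2 or any WT chow array was dropped (highest adjusted p 0.093), and with only the WT arrays in the fit. KO minus WT on HFD was 0.18 ± 0.10 (adjusted p = 0.292) for Cxcr6 and -0.18 ± 0.09 (adjusted p = 0.252) for Cxcl16.

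The diet response of the other called genes did not pass the test of a difference between genotypes. The interaction was -1.16 ± 0.30 (adjusted p = 0.0599) for Cxcl10 and -1.49 ± 0.42 (adjusted p = 0.081) for Cxcl9, the Cxcr3 ligands. It was -1.01 ± 0.29 (adjusted p = 0.09) for Ccl2 and -0.80 ± 0.21 (adjusted p = 0.0615) for its receptor Ccr2. Ccl22 stood at -0.78 ± 0.26 (adjusted p = 0.134), Cxcr4 at -0.50 ± 0.14 (adjusted p = 0.0769) and Ccl20 at 0.50 ± 0.14 (adjusted p = 0.0703). Ccl5 stood at -0.74 ± 0.29 (adjusted p = 0.211) and Cxcr6 at 0.39 ± 0.14 (adjusted p = 0.147). Ccl22, Ccl5 and Cxcr6 passed under no setting tried, and each of the others passed under some other setting. Cxcl10 passed with trend and robust settings (adjusted p = 0.0378), array weights, median centring or either filter on dim genes, and without KO HFD 1 or 3. Ccr2 passed with trend and robust settings, median centring or quantile normalization, and without WT HFD 3 (adjusted p = 0.0171). Ccl2 and Cxcl9 passed with either filter, Ccl2 also without WT chow 1 or KO chow 2 and Cxcl9 without KO chow 2 (lowest adjusted p 0.0393 and 0.0359 with an array left out). Cxcr4 passed with median centring or either filter, and Ccl20 without WT HFD 1 (adjusted p = 0.0404).

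The other 39 genes passed in no comparison, and 15 of them were below the odorant receptor percentile in every group. Cxcl13, the B cell ligand of Cxcr5, had the lowest diet differences in both genotypes among these, with -0.91 ± 0.29 in WT and -0.76 ± 0.29 in KO (adjusted p of 0.0913 and 0.503). It read 9.86, 9.74 and 9.39 in the 3 chow-fed WT mice and 8.76, 8.16 and 9.35 in those fed HFD. Cxcl13 in KO mice read 9.25, 9.51 and 10.31 on chow and 8.79, 9.10 and 8.90 on HFD. HFD and chow did not overlap in either genotype. Cx3cl1 and its receptor Cx3cr1 differed by -0.01 ± 0.15 and -0.19 ± 0.14 between KO and WT on HFD (limma adjusted p of 0.984 and 0.455). The eosinophil ligands Ccl24 and Ccl11 stood at -0.31 ± 0.20 and -0.28 ± 0.20, and Ccr7, which leads dendritic and T cells to lymph nodes, at -0.26 ± 0.12 (adjusted p of 0.394, 0.444 and 0.229). For Ccl27a, a skin ligand, the less bright probe set gave -0.49 ± 0.15 on HFD where the brighter gave -0.05 ± 0.13, so its probe sets disagreed.

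Further CC and CXC genes that passed in no comparison are given by their means. Cxcl14, a ligand of epithelia, averaged 6.89 ± 0.16 and 7.22 ± 0.03 (SD, n = 3) in WT on chow and HFD, and 6.86 ± 0.32 and 7.11 ± 0.10 in KO, a diet difference of 0.33 ± 0.14 (adjusted p = 0.202) and 0.25 ± 0.14 (adjusted p = 0.673). Ccl9, a macrophage ligand of Ccr1, differed by -0.47 ± 0.18 (adjusted p = 0.145) between diets in WT and passed without WT chow 2 (adjusted p = 0.0475). Ccl4, a neighbour of Ccl3 in the genome, stood at 0.40 ± 0.14 (adjusted p = 0.115) for HFD in WT and -0.52 ± 0.20 (adjusted p = 0.183) for the interaction. For the receptors Cxcr1, Cxcr5, Ccr8, Ccr9, Ccr10 and Xcr1, KO minus WT on HFD lay between -0.08 and 0.09. Of the lymphoid ligands Cxcl13, Cxcl12, Ccl25, Ccl27a and Ccl28, 0 of 5 passed in any comparison by limma's adjusted p; Cxcl13, Ccl25 and Ccl27a had unadjusted p values under 0.05 in at least 1.

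On chow, differences between KO and WT that came nearest to passing were those of Ccl27a (-0.37 ± 0.12), Cxcl10 (-0.65 ± 0.21) and Ccl25 (-0.26 ± 0.09), each with a limma adjusted p of 0.561. The less bright probe set of Ccl27a went the other way on chow, at 0.16 ± 0.15. Over the 51 genes the chow differences ran from -0.65 to 0.39 with a median of -0.03.

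Members that sit together in the genome did not all move together. In the RefSeq gene order of GRCm38.p6, 34 of the 51 fall into 9 runs with at most 3 protein-coding genes between neighbours, and 17 stand alone. In the run Ccl2, Ccl7, Ccl11, Ccl12, Ccl8 and Ccl1, Ccl2 alone was called in KO against WT on HFD. In Ccl5, Ccl9, Ccl6, Ccl3 and Ccl4, 2 were called (Ccl5 and Ccl3), and so were 2 of Cxcl9, Cxcl10 and Cxcl11 (the first 2) and 2 of Ccl22, Cx3cl1 and Ccl17 (Ccl22 and Ccl17). In Cxcl5, Cxcl3, Cxcl15, Cxcl1 and Cxcl2, Cxcl1 was called. In Ccr9, Cxcr6, Xcr1, Ccr1, Ccr3 and Ccr2, Ccr2 was called. The runs of Cxcr2 with Cxcr1, Ccl26 with Ccl24 and Cx3cr1 with Ccr8 held no call. All calls in runs were lower in KO, as were 19.6% of the 51 genes and 6.62% of all genes. Differences between neighbours in whether they were called were not tested.

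The 250 bases before the start site are shown for the called ligands Cxcl10, Cxcl9, Cxcl1, Ccl3 and Ccl20, and for Cxcl2, a neighbour of Cxcl1 with like motifs that was not called (RefSeq, GRCm38.p6, each 5′ to 3′ on the strand of its gene). Capitals mark matches, on either strand, to GGGNNTTTC, the first letters of a form of the NF-kappaB site, or to GAAANNGAA, the first letters of a form of the interferon response element.
Cxcl10, chr5:92348890-92349139, minus strand: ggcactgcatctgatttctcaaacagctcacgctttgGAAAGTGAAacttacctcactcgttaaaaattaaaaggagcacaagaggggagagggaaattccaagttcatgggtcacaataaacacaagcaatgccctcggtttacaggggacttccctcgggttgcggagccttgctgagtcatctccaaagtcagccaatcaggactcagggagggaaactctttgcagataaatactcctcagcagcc
Cxcl9, chr5:92328080-92328329, minus strand: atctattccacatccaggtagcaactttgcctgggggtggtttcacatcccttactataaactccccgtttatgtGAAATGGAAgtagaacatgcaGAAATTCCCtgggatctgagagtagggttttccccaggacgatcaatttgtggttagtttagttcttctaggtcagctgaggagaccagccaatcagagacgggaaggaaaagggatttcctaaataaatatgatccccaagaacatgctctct
Cxcl1, chr5:90890995-90891244, plus strand: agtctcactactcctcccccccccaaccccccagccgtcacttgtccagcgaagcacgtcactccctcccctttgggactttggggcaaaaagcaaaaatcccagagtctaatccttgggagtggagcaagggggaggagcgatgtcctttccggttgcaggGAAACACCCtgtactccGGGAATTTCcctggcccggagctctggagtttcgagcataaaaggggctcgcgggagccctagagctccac
Cxcl2, chr5:90903649-90903898, plus strand: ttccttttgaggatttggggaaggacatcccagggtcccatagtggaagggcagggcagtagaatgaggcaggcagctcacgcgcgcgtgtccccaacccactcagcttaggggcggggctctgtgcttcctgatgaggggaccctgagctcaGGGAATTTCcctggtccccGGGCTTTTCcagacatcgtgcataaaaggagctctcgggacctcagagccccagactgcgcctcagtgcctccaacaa
Ccl3, chr11:83649379-83649628, minus strand: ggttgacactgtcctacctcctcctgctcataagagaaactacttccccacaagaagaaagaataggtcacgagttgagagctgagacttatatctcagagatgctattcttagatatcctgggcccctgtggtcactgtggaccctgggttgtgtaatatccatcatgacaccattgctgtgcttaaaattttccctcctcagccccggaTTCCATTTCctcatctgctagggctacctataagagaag
Ccl20, chr1:83116516-83116765, plus strand: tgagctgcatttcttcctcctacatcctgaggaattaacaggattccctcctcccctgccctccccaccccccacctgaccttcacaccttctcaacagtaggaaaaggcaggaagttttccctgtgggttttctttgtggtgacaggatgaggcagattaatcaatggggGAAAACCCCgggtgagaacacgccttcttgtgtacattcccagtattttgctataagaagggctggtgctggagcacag

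In these windows Cxcl10 has 1 interferon-type match, which begins 213 bases before the start site, and Cxcl9 has 1 of each type, at 175 (interferon) and 154 (NF-kappaB). Cxcl1 has NF-kappaB-type matches at 88 and 71 bases and Cxcl2 at 97 and 78, and Cxcl1 differed between KO and WT on HFD by -0.74 ± 0.15 and Cxcl2 by -0.21 ± 0.12. Ccl3 has an interferon-type match at 39 and Ccl20, the gene that was higher in KO, an NF-kappaB-type match at 79. Promoters were listed for 37 of the 51 genes, in 41 entries, and not for Ccl2, Ccl4, Ccl5, Ccl7, Ccl11, Ccl24, Ccl26, Cxcl5, Cxcl11, Cxcl16, Cxcl17, Ccr7, Ccr10 and Cxcr5. The NF-kappaB form was in 26.8% of the 41 entries and in 3.72% of the 32851 promoters of all genes, and the interferon form in 17.1% and 7.13%, with no overlap of the 2 motifs in any member. Of the 10 called genes with an entry, 7 held at least 1 match, against 10 of the 27 genes not called, and Ccl17, Ccl22 and Cxcr6 held none. A match of letters describes these windows and does not show a bound site. Only 1 form of each site was searched, so a window without a match may hold a site of another form.

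Genes that act beside chemokines were read from 4 lists, against 3.89% of all genes higher and 6.62% lower in KO than in WT on HFD. The list of atypical receptors and related proteins also names the member Cxcl17, which was not counted in it. Among its 10 measured genes, KO against WT on HFD gave 1 higher (Ackr2, a scavenging receptor of CC ligands, 0.68, limma adjusted p = 0.0475) and 1 lower (Ccrl2, -0.49, adjusted p = 0.0284), a single gene each way. Among 18 genes of receptor signalling 3 were lower, such as Dock2 (-0.46, adjusted p = 0.00814) and Elmo1 (-0.46, adjusted p = 0.0395), which drive cell movement through Rac, and 0 were higher. Of 17 genes of the NF-kappaB, interleukin-1 and TNF route 1 was higher (Il1b, 1.90, adjusted p = 0.00314) and 4 were lower, among them Tnfaip3, an NF-kappaB target and inhibitor (-0.65, adjusted p = 0.00311). Of 12 genes of the interferon route 5 were lower, including Ifit1 (-1.53, adjusted p = 0.00145) and Irf8 (-0.56, adjusted p = 0.00338), and 0 were higher. The medians of these lists were -0.08, -0.13, -0.06 and -0.19. For HFD in WT, 4.02% of all genes were higher and 2.94% lower. There the same lists gave 0, 2, 2 and 4 higher and 0, 1, 2 and 0 lower. For HFD in KO and for KO against WT on chow 0 of any list passed, where at most 0.158% of all genes passed in either direction.

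Markers of cells that chemokines attract, or that make them, were read in the same way, against the same 3.89% of all genes higher and 6.62% lower in KO than in WT on HFD, so that a single called marker in a list of this size is near the share of all genes. The mean signal of 7 lipid-associated macrophage markers was 7.07 to 7.51 in WT on HFD and 6.32 to 6.66 in the other groups. In KO against WT on HFD 5 were lower and 0 higher (Mmp12, -1.73 ± 0.13, adjusted p = 1.39e-05), with a list median of -0.50. Cd9 of this list went the other way in that comparison without passing (0.34 ± 0.10, adjusted p = 0.0564). HFD in WT raised 6 of the 7 and lowered 1, Cd9 (-0.47 ± 0.10, limma adjusted p = 0.0178). Of all genes, 4.02% were higher and 2.94% lower for HFD in WT. The mean of 7 monocyte markers was 6.32 to 6.39 in WT on HFD and 5.91 to 6.13 in the other groups, and 2 were lower in KO on HFD (Ly6c2, -0.92, adjusted p = 0.0119, and Plac8). Of these 7 monocyte markers, 3 lay below the odorant receptor percentile. For 10 neutrophil markers the mean was 5.54 to 5.66 against 5.07 to 5.47, but 0 of them passed in KO against WT on HFD and 7 lay below the odorant receptor percentile. HFD in WT raised 1 of these 10, Lcn2 (2.89 ± 0.43, limma adjusted p = 0.00224), while the list median was 0.07. Against WT on chow, the higher mean of this list therefore rests largely on Lcn2. In KO against WT on HFD the list median was -0.18. Retnlg stood there at -0.93 ± 0.28 and Lcn2 at -1.25 ± 0.43 (limma adjusted p = 0.058 and 0.0942), neither passing. Of 10 Kupffer cell markers, 7 NK cell markers, 7 B cell markers, 6 dendritic cell markers and 5 cholangiocyte markers 0 passed in KO against WT on HFD. The NK cell list averaged 5.34 on each WT HFD array and 5.07 to 5.18 in KO on HFD. On chow it averaged 5.14 to 5.45 in WT and 5.06 to 5.33 in KO, and 4 of its 7 markers lay below the odorant receptor percentile. Of 9 T cell markers 1 was higher (Cd4), of 8 stellate cell markers 2 were lower (Lrat and Col1a1; list mean 9.09 to 9.30 in WT on HFD, 8.74 to 8.97 elsewhere), of 7 endothelial markers 1 was lower (Lyve1), and of 7 hepatocyte markers 2 were higher (Serpina1a and Cps1). A clock gene index (the mean of 5 genes that peak around lights-on minus the mean of 7 that peak around lights-off), chosen after results were seen, was -1.12 to -0.68 in WT on HFD and -0.25 to 1.10 on the other 9 arrays. The part of these cells and of the time of day in the chemokine differences was not tested.

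**Figure D4:**
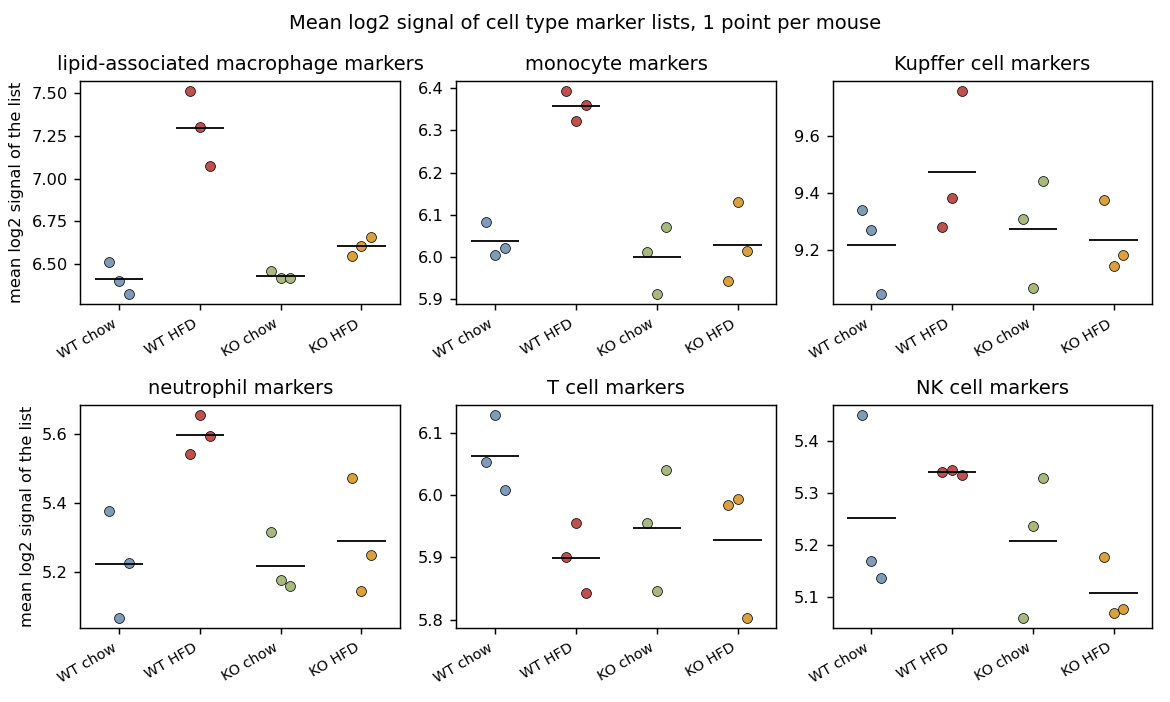
Points give, for each mouse, the mean log2 signal of a list of cell type markers (vertical axis, each panel with its own) in the 4 groups, and lines give the group means. WT HFD stands above the other groups for lipid-associated macrophage, monocyte and neutrophil markers, and lies within or overlaps the range of at least 1 other group for Kupffer cell, T cell and NK cell markers. Of the neutrophil markers, Lcn2 alone passed for HFD in WT.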

How the data were processed

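Liver RNA of 12 mice was hybridised to 12 arrays, 1 per mouse. The authors deposited log2 signals for 41345 probe sets, for which the submitters' processing notes name oligo. Neither its version nor the normalization or summary step is stated in the labels. The values (1.40 to 14.36, 0 missing, array medians 5.58 to 5.70) were used without further scaling or filter. Genes were named from the array annotation where a probe set had 1 symbol (23521 probe sets, 22180 genes), with the brightest probe set per gene. The 51 members were matched to RefSeq by gene number, all 51 of them.

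The 4 groups were fitted together across all genes by lmFit and eBayes (limma 3.58.1, R 4.3.3) for 5 comparisons, and p values were adjusted by Benjamini-Hochberg over all 22180 genes within each; the code was tested on simulated data. Every member could be named, with all arrays for those called, and other lists by counts and up to 2 genes with the smallest p. The members and lists were chosen with earlier results of these data known. The number of arrays limits precision. Same-numbered arrays did not deviate together (18 pairs, r of -0.06 to 0.08), so the replicate block was an alternative only. Other alternatives were trend and robust settings, array weights, centring, quantile normalization, filters on dim genes, all probe sets averaged, only the arrays compared, a 2-fold minimum, and leaving out each array.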

Additional observations from a re-analysis of the deposited data

Results flagged for a closer look

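The response to HFD differed between KO and WT, by the interaction term of the fit, for Ccl17 (-1.30 ± 0.23, adjusted p = 0.0112), Ccl3 (-1.24 ± 0.28, adjusted p = 0.0305) and Cxcl1 (-0.89 ± 0.22, adjusted p = 0.0463), by limma over all genes. The call of Ccl17 held whichever array was left out, while that of Ccl3 was lost in 9 and that of Cxcl1 in 10 of the 12 cases (adjusted p of up to 0.076 and 0.11), and both were lost with the replicate number as a block. Ccl17 was higher on HFD in 3 of 3 WT arrays than in all WT chow arrays, and its 3 KO arrays on HFD lay below all KO arrays on chow. The diet difference of Ccl17 in KO did not pass (-0.45 ± 0.17, limma adjusted p = 0.464). Its means in WT on chow and in both KO groups were below the odorant receptor percentile. Cxcl9 had the largest interaction estimate of the 51 (-1.49 ± 0.42) but did not pass (adjusted p = 0.081).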

How the results depend on the processing

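Under every setting tried the called genes kept their direction, and the counts for KO against WT on chow and for HFD in KO stayed at 0. The 11 calls of KO against WT on HFD became 10 with only the arrays compared and 12 with centring or quantile normalization. They became 6 of the 24 members above the median signal and 7 of the 29 above the odorant receptor percentile, which test fewer members, and 4 with a 2-fold minimum (Cxcl10, Cxcl9, Ccl3 and Ccl2). The 8 calls for HFD in WT became 3 with a 2-fold minimum, and 10 with trend and robust settings. The 3 calls of the interaction became 1 with the replicate block (Ccl17 kept; Ccl3 and Cxcl1 not, adjusted p = 0.0532 and 0.0861), 5 with trend and robust settings or above the median signal, and 6 with centring or above the odorant receptor percentile; the cause was not tested. With the replicate block KO against WT on HFD gave 11 calls, 10 of them shared (Ccl22 lost, adjusted p = 0.0605; Ccr1 gained), and HFD in WT gave 7 (Cxcl1 lost). Leaving out 1 array gave 9 to 11, 4 to 9 and 1 to 3 calls for KO against WT on HFD, HFD in WT and the interaction, and 0 to 0 for the others. Centring shifted the median of all genes by at most 0.06. Signals below the odorant receptor percentile limit how well differences are measured: those of Ccl20 and Cxcr6 in every group, of Ccl17, Ccl22 and Ccr2 in every group but WT on HFD, and of Cxcl1 in KO on HFD.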
